A study of Mus musculus with 12 samples.

Results

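Sdc1, Cd28, Cd93, Entpd1, Alpl, Ly6c2, Ly6a, Slpi, Tmem176b and Prg2 encode cell surface, membrane and secreted proteins that mark plasma cells (PC). The 10 genes were chosen by their measured transcript levels, which were high in the PC of these same data, and all 10 were found among the 13886 genes of the count matrix. Their higher level in PC is therefore given as a description, with no test. The cells came from draining lymph nodes of 3 mice immunized with the hapten-carrier antigen NP-KLH in Sigma Adjuvant System. All 3 mice received tamoxifen by gavage and were analysed 5 days after it, on day 16 of the response, so every group below shares that treatment. Sorted cells were live, lacked surface IgD and carried the fluorescent reporter eYFP. Strain, age and the driver of the tamoxifen-controlled recombination were not given in the sources used. PC and non-PC were loaded into separate wells of a 5′ droplet assay, which counts each captured transcript once through a unique molecular identifier (UMI), and hashtag antibodies marked the mouse of origin.

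The deposited annotation placed the 6000 cells in 6 states. Germinal center (GC) B cells comprised 3040 dark zone (DZ), 2213 light zone (LZ) and 165 light-to-dark zone (LZtoDZ) cells, 5418 together. There were 396 pre-memory (preMem) cells, 49 pre-plasma (prePC) cells and 137 PC. The prePC numbered 17, 22 and 10 in mice 1, 2 and 3, and the PC numbered 46, 58 and 33.

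Plasma cells are the antibody-secreting end stage of the B cell lineage. Those that leave a germinal center reaction rely on stromal contacts, cytokines of the TNF family and adhesion receptors to survive in lymph node and bone marrow niches. Surface proteins such as syndecan-1 are used to sort them, because the B cell receptor complex and many B cell surface proteins are reduced once secretion begins.

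Depth differed between states, with a median of 24018 UMIs in PC, 9225 in prePC, 4119 in preMem, 7875 in DZ, 6258 in LZ and 19103 in LZtoDZ cells. In PC, 36.4% of UMIs were from immunoglobulin genes, against 1.37% in GC cells. Levels are therefore given as CPM, which here means the UMIs of a gene per 1000000 non-immunoglobulin UMIs, summed over the cells of a state in 1 mouse. Shares are also given at an equal number of UMIs per cell. Those UMIs include immunoglobulin, so the number left for other genes still differs between states. The summed level of 6 plasma cell genes (Prdm1, Xbp1, Irf4, Jchain, Mzb1 and Fkbp11) was 38649 to 50827 CPM in PC, 3217 to 6483 CPM in prePC, and 1017 to 2875 CPM in preMem, DZ and LZ cells. All 8 T and NK cell markers in the matrix, the erythroid markers and Cdh5 of endothelium had 0 UMIs in PC. The myeloid list summed to 2.68 to 7.33 CPM in PC, from Lyz2 and Itgam alone, and to 11.4 to 365 CPM in prePC. At least 2 UMIs of markers listed for other cell types were found in 7 PC and 5 prePC. Cell names carried 1 of 2 barcode series that shared 0 barcodes. The first held 5878 cells with 20 of the PC, and the second held 122 cells with 117 of the PC. The labels do not tie a series to a sorted fraction. Results on PC are given with and without the first series where they rest on it, except correlations over single PC.

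Promoter sequence from RefSeq (GRCm38.p6) was matched for 6 of the 10 genes, with 11 starts between them. The 250 bases before a start are shown for 3 genes that differ in how far they reach outside PC: Sdc1, which was nearly absent elsewhere, Ly6c2, which was found also in prePC and preMem, and Slpi, which was found in every state. Capitals mark matches on either strand to the E-box CAGCTG, the BLIMP-1 core GAAAGT, the unfolded protein response element part ACGTGG, which reads CCACGT on the other strand, and the TATA box TATAAA.
Sdc1: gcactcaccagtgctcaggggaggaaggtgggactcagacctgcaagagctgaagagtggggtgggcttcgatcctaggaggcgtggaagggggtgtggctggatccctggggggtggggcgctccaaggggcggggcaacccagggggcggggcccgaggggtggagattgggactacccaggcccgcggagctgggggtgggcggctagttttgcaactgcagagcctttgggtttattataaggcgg
Ly6c2: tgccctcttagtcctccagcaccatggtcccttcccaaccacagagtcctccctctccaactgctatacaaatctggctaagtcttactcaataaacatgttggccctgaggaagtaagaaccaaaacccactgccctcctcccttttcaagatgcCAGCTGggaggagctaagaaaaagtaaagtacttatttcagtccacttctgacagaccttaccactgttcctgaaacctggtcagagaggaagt
Slpi: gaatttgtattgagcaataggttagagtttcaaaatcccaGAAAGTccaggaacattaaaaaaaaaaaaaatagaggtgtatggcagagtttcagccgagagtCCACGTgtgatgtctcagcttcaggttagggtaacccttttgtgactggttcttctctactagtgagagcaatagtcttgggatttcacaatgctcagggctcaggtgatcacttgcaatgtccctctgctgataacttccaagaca
The Sdc1 window is at chr12:8771146-8771395, + strand, and held none of the 4 motifs. The Ly6c2 window, at chr15:75111938-75112187 on the - strand, held the E-box letters. The Slpi window, at chr2:164356508-164356757 on the - strand, held the BLIMP-1 core and the ACGTGG letters. Of 32851 promoter windows of this length in the reference, 13.0% held CAGCTG, 12.3% GAAAGT, 6.91% ACGTGG and 12.4% TATAAA. A match describes the letters of the window and is not evidence of binding.

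Among the adhesion and survival receptors, Sdc1, Cd28 and Cd93, transcripts were found in 35.0% to 67.2% of PC and in under 1% of GC and preMem cells. Sdc1 encodes syndecan-1 (CD138), a heparan sulfate proteoglycan of the PC surface. At least 1 Sdc1 UMI was found in 37 of 46 PC of mouse 1 (80.4%), 33 of 58 of mouse 2 (56.9%) and 22 of 33 of mouse 3 (66.7%), a mean of 68.0% ± 11.8 (SD, n = 3). The Sdc1 level in PC was 147, 122 and 128 CPM in mice 1, 2 and 3. Mouse 1 was highest by share and by level, and every mouse was far above its other states. Sdc1 had 8 UMIs in 8 of 5418 GC cells (0.148%), and 1 UMI each in 396 preMem cells and 49 prePC. Its level in PC was 755 times that in GC cells (95% interval 378 to 1766, counting error only), and 72.3 times that in prePC (12.9 to 2867). No DZ or LZ cell was in the second barcode series, which held 117 of the PC. The 20 PC of the first series held 1 Sdc1 UMI. Their level was 18.2 times that in GC cells (0.410 to 136), an interval that includes 1.

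Cd28 encodes a costimulatory receptor best known on T cells that also carries a survival signal in plasma cells through its ligands CD80 and CD86. Transcripts were found in 63.0%, 43.1% and 66.7% of PC in mice 1, 2 and 3, a mean of 57.6% ± 12.7 (SD, n = 3). The Cd28 level was 221, 107 and 128 CPM, with mouse 1 above the other mice. No Cd28 UMI was found in 2213 LZ or 165 LZtoDZ cells. Among preMem cells 0 of 396 had one, which allows a share with a UMI of up to 0.758% (3 of 396). DZ cells held 3 UMIs in 2 of 3040 cells, and 1 of 49 prePC had Cd28. The 324 Cd28 UMIs of PC came with 0 UMIs of the 8 T and NK cell markers.

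Cd93 encodes a C-type lectin-like transmembrane glycoprotein that is needed to keep plasma cells in the bone marrow. Cd93 was detected in 39.1%, 29.3% and 39.4% of PC, a mean of 35.9% ± 5.75 (SD, n = 3), the lowest share of the 10 genes. Its level of 45.5, 45.5 and 55.0 CPM was close across mice. Cd93 was also found in 29 of 5418 GC cells, 3 of 396 preMem cells and 2 of 49 prePC. Its level in PC was 72.8 times that in GC cells (48.1 to 113). In the first-series PC alone, which held 1 Cd93 UMI, it was 4.86 times the GC level (0.119 to 29.2).

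Both ectoenzymes, Entpd1 and Alpl, were found in most PC, and each was also found in a different small fraction of cells outside them. Entpd1 encodes CD39, which hydrolyses extracellular ATP and ADP. Entpd1 was detected in 89.1%, 67.2% and 69.7% of PC, a mean of 75.4% ± 12.0 (SD, n = 3), at 173, 148 and 161 CPM. Its share in mouse 1 exceeded that of the other mice, while the levels lay close together. Among prePC Entpd1 was found in 4 of 17, 5 of 22 and 0 of 10 cells, 18.4% pooled (8.76 to 32.0, exact 95% binomial interval). Among preMem cells it was found in 3.92%, 6.00% and 2.78% of cells in mice 1, 2 and 3, at 8.92, 14.4 and 9.03 CPM. GC cells held 2 Entpd1 UMIs in 5418 cells.

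Alpl encodes tissue-nonspecific alkaline phosphatase. Alpl was detected in 67.4%, 43.1% and 60.6% of PC, a mean of 57.0% ± 12.5 (SD, n = 3). The level was 106, 57.4 and 64.1 CPM, highest in mouse 1. Outside PC, the pooled share with Alpl was highest in LZtoDZ cells, the GC cells annotated as returning from light to dark zone. There 3 of 43, 2 of 56 and 3 of 66 cells had 1 UMI each, 4.85% pooled (2.12 to 9.33). No Alpl UMI was found in 3040 DZ cells, which allows a share with a UMI of up to 0.0987% (3 of 3040), and 3 of 2213 LZ cells had Alpl. By CPM, LZtoDZ cells were at least 21.0-fold higher than DZ cells, against a floor of 3 UMIs over all DZ cells, and 12.0 times the LZ level (2.89 to 70.4). These ratios rest on 8 UMIs and were not tested across mice. LZtoDZ cells were also the deepest state outside PC. Thinned to 10000 UMIs, their pooled share was 2.55%, against 0.293% in LZ cells. Alpl was also found in 1 of 49 prePC (1.83 CPM) and 1 of 396 preMem cells (3 UMIs, 1.66 CPM). These levels were close to the 2.35 CPM of LZtoDZ cells.

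Of the Ly6 family genes, Ly6a was found in every state, and Ly6c2 was found in PC, prePC and preMem cells and was rare in GC cells. Ly6c2 encodes a GPI-anchored surface protein of the Ly6C group. Ly6c2 was detected in 67.4%, 74.1% and 66.7% of PC, a mean of 69.4% ± 4.12 (SD, n = 3), at 993, 1148 and 808 CPM. Single PC held 0 to 148 Ly6c2 UMIs with a median of 5, and the 5 highest cells held 23.7% of them. In prePC it was found in 11.8%, 31.8% and 20.0% of cells at 153, 186 and 62.8 CPM, and in preMem cells in 11.8%, 8.00% and 2.78% at 40.1, 37.5 and 7.53 CPM. Every prePC level was above every preMem level. GC cells held 7 Ly6c2 UMIs in 7 of 5418 cells. Ly6c1, a near-identical paralog whose reads may be hard to tell from those of Ly6c2, had 0 UMIs in PC and 2 in prePC, so the split between the paralogs is uncertain.

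Ly6a encodes Sca-1, a GPI-anchored surface protein of many hematopoietic and activated cells. It was found in 46 of 46, 57 of 58 and 32 of 33 PC, at 4444, 4380 and 3202 CPM. It was also found in 67.8% to 89.3% of cells of each GC state and mouse, so its share does not set PC apart. Its level did order the states: 299, 314 and 258 CPM in GC cells, 1242, 1441 and 853 CPM in preMem cells, and 1964, 1619.5 and 2111 CPM in prePC. These ranges did not overlap with each other or with PC. With every cell thinned to 2000 UMIs, Ly6a was expected in 41.0% of DZ, 40.6% of LZ, 30.8% of LZtoDZ, 68.6% of preMem, 83.2% of prePC and 85.6% of PC. The thinning left out 14 DZ, 20 LZ and 9 preMem cells and no prePC or PC.

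The remaining genes encode the secreted proteins Slpi and Prg2 and the membrane protein Tmem176b. Slpi encodes a secreted inhibitor of leukocyte serine proteases. Slpi was detected in 89.1%, 98.3% and 93.9% of PC, a mean of 93.8% ± 4.57 (SD, n = 3). Its level in PC was 24882, 38625 and 15272 CPM in mice 1, 2 and 3, the highest of the 10 genes in every mouse, with mouse 2 above the others. Single PC held from 0 to 2810 Slpi UMIs, with a median of 112 in mouse 1, 335.5 in mouse 2 and 119 in mouse 3, and 85 of 137 PC held at least 100. GC cells held 218, 209 and 216 CPM, and preMem cells 103, 113 and 119 CPM, below GC cells in every mouse. LZtoDZ cells reached 543, 381 and 475 CPM, above the 172, 189 and 196 CPM of DZ cells in each mouse, 2.44 times by pooled level (2.30 to 2.58). In prePC the level was 942.5, 1009 and 1281.5 CPM, and 4 of 49 cells held 66.2% of the UMIs. Slpi was counted 27.6 times per Ly6c2 UMI in PC and 1677 times per Ly6c2 UMI in DZ cells, which had 3 Ly6c2 UMIs.

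Tmem176b encodes an intracellular membrane protein that pairs with the product of its neighbour Tmem176a. It was found in 65.2%, 63.8% and 63.6% of PC, a mean of 64.2% ± 0.871 (SD, n = 3), the closest agreement between mice of the 10. The level was 396, 306 and 246 CPM in PC. In prePC Tmem176b was found in 2 of 17, 5 of 22 and 0 of 10 cells, 14.3% pooled (5.94 to 27.2). Tmem176a was found in 87 of 137 PC, 8 of 49 prePC and 60 of 5418 GC cells.

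Prg2 encodes the proform of major basic protein, known from eosinophil granules. Prg2 was detected in 52.2%, 58.6% and 51.5% of PC, a mean of 54.1% ± 3.93 (SD, n = 3). The level of 211, 555 and 394 CPM rested on few cells: the 5 highest PC held 60.0% of all Prg2 UMIs, with 207 UMIs in 1 cell of mouse 2 and 178 in 1 cell of mouse 3. Each of those cells also held 3 UMIs of Prg3, the paralog that is likewise an eosinophil gene. Prg3 was also found in 168 of 3040 DZ and 48 of 2213 LZ cells, of which 9 and 1 held Prg2. Its level was 6.13 to 7.77 CPM in DZ cells and 5.35 to 5.98 CPM in PC, and its source was not tested. Without the 7 PC counted as holding other-type RNA, some of them by Prg3 alone, Prg2 was 218, 328 and 68.2 CPM. Prg2 was still found in 72 of 130 PC. Prg2 was found in 56 of 3040 DZ cells and 14 of 2213 LZ cells.

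**Figure D1:**
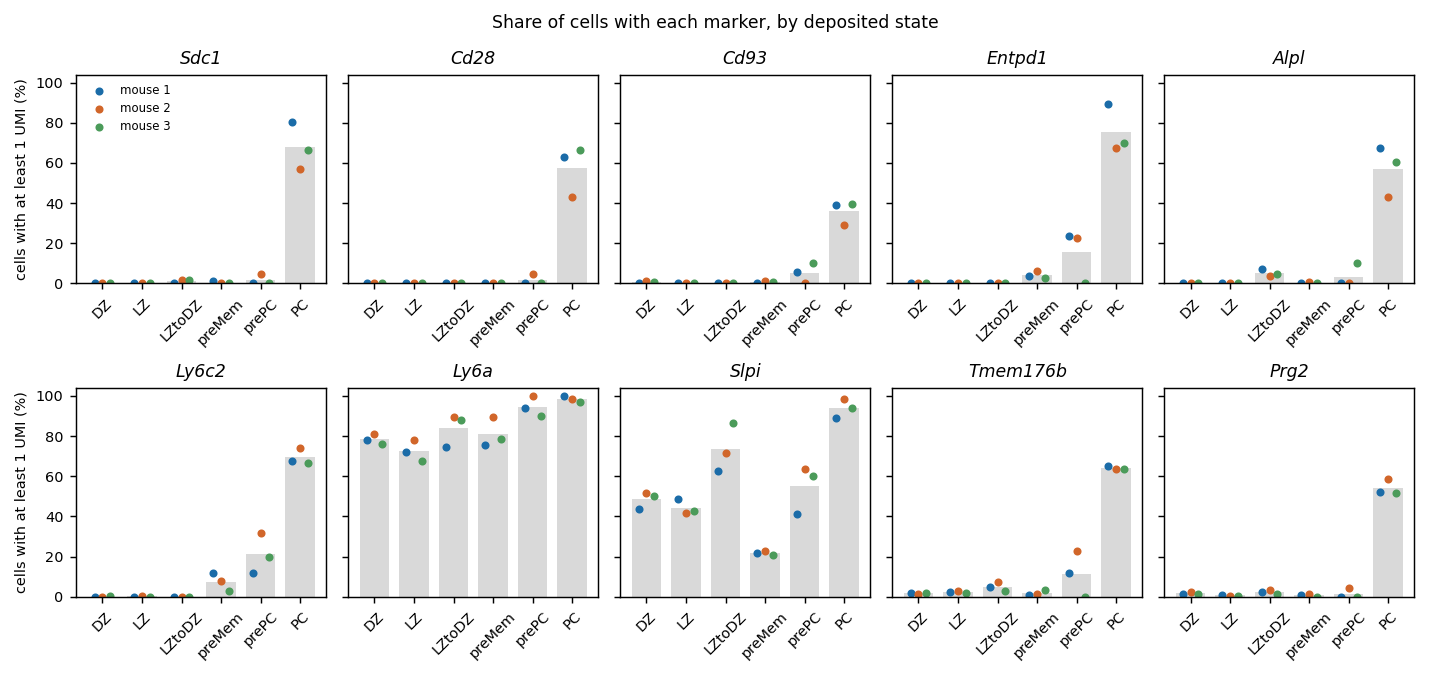
The share of cells with at least 1 UMI (percent, linear axis) of each gene is plotted for the 6 deposited states, with a point per mouse and a grey bar for the mean of the 3 mice. Sdc1, Cd28, Cd93, Alpl, Tmem176b and Prg2 stand up in PC and lie near 0 in DZ, LZ and preMem, Entpd1 and Ly6c2 also appear in prePC and preMem, and Ly6a and Slpi are found in every state. Depth was not equalised between states in this plot.

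Single PC carried most of the 10 transcripts together, and cells of other states did not. The median PC had 7 of the 10 (range 2 to 10), 117 of 137 PC had at least 5, and 6 PC had all 10. The mean per PC was 7.13, 6.33 and 6.76 in mice 1, 2 and 3. The median prePC had 2 of the 10 (range 1 to 5), with at least 3 in 16 of 49 cells and at least 5 in 1 cell. In preMem cells the median was 1 and 22 of 396 had at least 3, and in GC cells the median was 1 and 124 of 5418 had at least 3. With every cell thinned to 2000 UMIs the expected mean was 3.19 in PC, 1.42 in prePC and 0.886 in preMem. It was 0.644 in DZ, 0.660 in LZ and 0.691 in LZtoDZ cells. PC and prePC thus had the highest means at 2000 UMIs too, immunoglobulin included. At 10000 UMIs PC were again highest (5.56), but prePC (2.16) were not above preMem cells (2.20). That depth left out 383 of 396 preMem cells and 26 of 49 prePC.

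**Figure D2:**
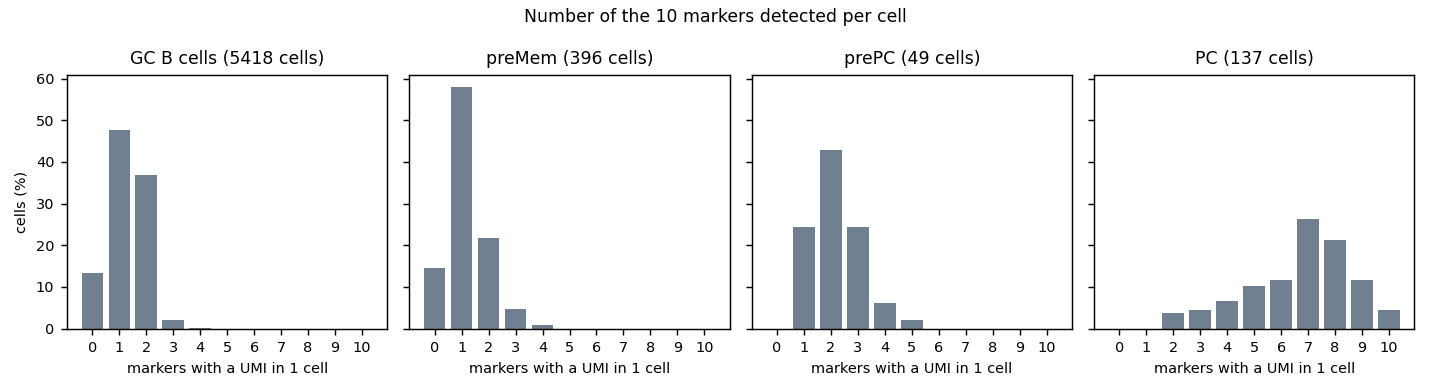
The number of the 10 genes with a UMI in a cell (x axis) is plotted against the percent of cells (y axis) for GC cells, preMem, prePC and PC, without thinning. The PC distribution centres on 7 and begins at 2, while prePC end at 5 and both other groups at 4.

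Within PC, deeper cells showed more of the 10 genes, and at an equal number of UMIs the depth classes lay close together. Cells in the lowest, middle and highest depth class (median 15876, 24018 and 32806 UMIs) had a mean of 5.70, 7.00 and 7.41 genes. Thinned to 10000 UMIs, which left out 9 PC, the means were 5.36, 5.68 and 5.53.

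Detection in the same cell was compared with the product of the separate shares for all 45 pairs. Slpi and Ly6a were found together in 127 of 137 PC. At 10000 UMIs per cell the share with both exceeded the product in 33 of 45 pairs over all PC, and did so in each of 3 mice in 13 pairs, but the median excess was 0.942 percentage points. The largest excess was 4.1 points for Sdc1 with Ly6c2, which were found together in 72 PC, and 3.9 points for Sdc1 with Entpd1, together in 75 PC, although the latter was -0.226 points in mouse 1. For the second barcode series alone, without thinning, these were 0.855 and -0.380 points, and the median over pairs was 0.431. There 26 of 45 pairs exceeded the product, against 35 of 45 over all PC without thinning. Cd28 with Prg2 was lowest at -2.0 points, and was below the product in every mouse. The excess is a description of these cells, is not set against other gene pairs and was not tested.

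**Figure D3:**
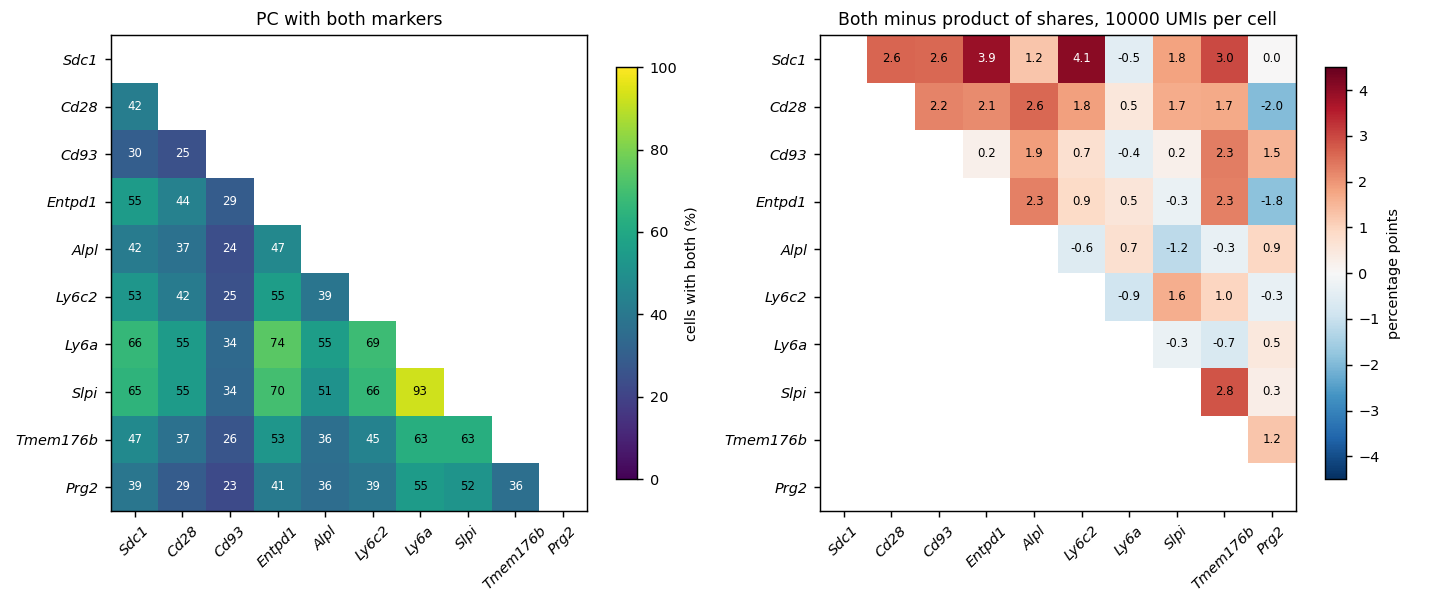
On the left, colour and number give the percent of 137 PC with both genes of a pair. On the right, they give the share with both minus the product of the separate shares, in percentage points at 10000 UMIs per cell. Sdc1 with Ly6c2 (4.1) and Sdc1 with Entpd1 (3.9) are highest, and Cd28 with Prg2 (-2.0) is lowest.

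PC without an Sdc1 UMI still carried several of the other genes. The 45 PC with no Sdc1 UMI (median 19228 UMIs) had Ly6a in 44, Slpi in 40, Entpd1 in 28, Ly6c2 in 24, Tmem176b in 23, Prg2 in 21, Alpl in 19, Cd28 in 18 and Cd93 in 7 cells. They had a mean of 4.98 of the 9 other genes, against 6.54 in the 92 PC with Sdc1 (median 25713 UMIs). Within the second barcode series the means were 5.96 in 26 PC without and 6.55 in 91 PC with Sdc1.

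The authors deposited a plasma cell score per cell, the genes of which are unknown and may include some of these. Across the 137 PC, the log2 level of Entpd1 followed that score most closely (Pearson r = 0.432), then Sdc1 (0.402), Cd28 (0.369), Ly6a (0.288) and Ly6c2 (0.221). Slpi (0.139), Cd93 (0.0437) and Prg2 (-0.00853) followed it least. These are descriptions over cells that share 3 mice and differ in depth and barcode series. The 20 first-series PC had a median score of 0.536, against 0.770 in the 117 of the second series. Sdc1 was found in 1 and 91 of these cells. Correlations within a series were not computed.

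States were compared with edgeR's quasi-likelihood test on sums per mouse (Benjamini-Hochberg adjusted p under 0.05). In these tests GC was the average of DZ, LZ and LZtoDZ with equal weight. The CPM and ratios for GC cells pool all GC cells, so the 2 references differ. The filter on low counts was applied over the sums of all states, PC included, and left 8473 genes with all 10 among them. Sdc1, Cd28, Cd93, Alpl and Prg2 had 1 or 2 positive cells in prePC, so counts of genes called outside PC are not read against the share of all genes, which is given for completeness.

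The prePC question is how much of the PC surface and secreted program is present before the PC state. Of the 10 genes, 5 were higher in prePC than in GC cells and 0 lower, where 10.5% of all genes tested were higher and 7.48% lower. Ly6a was higher by 2.93 ± 0.12 (log2 fold change ± SE), Ly6c2 by 10.13 ± 0.46, Slpi by 2.14 ± 0.18 (adjusted p = 4.6e-07) and Tmem176b by 2.61 ± 0.70 (adjusted p = 0.015). Entpd1 was the fifth, at 459 times the GC level from 11 UMIs against 2 (100 to 4265). For Tmem176b the filter included PC sums of 246 to 396 CPM, so its call is a description. The Tmem176b call was lost without mouse 1 (adjusted p = 0.076), without mouse 2 (adjusted p = 0.40) and without the second barcode series (adjusted p = 0.061). With only the prePC of the main preMem cluster, the Slpi difference was 0.76 (adjusted p = 0.014). Sdc1, Cd28, Cd93, Alpl and Prg2 had too few UMIs in prePC for a comparison. The annotation that defines prePC may have used some of these genes, and their plasma cell score, whose genes are unknown, begins at 0.251.

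The preMem comparison used the same GC sums as the prePC comparison. It found 3 genes higher and 1 lower than in GC cells, where 25.4% of all genes tested were higher and 21.5% lower. Ly6c2 was higher by 7.79 ± 0.54 and Ly6a by 2.21 ± 0.12, and Entpd1 was 253 times the GC level (61.4 to 2229). Slpi fell by 1.12 ± 0.21 (adjusted p = 4.2e-04). Ly6a, Ly6c2 and Entpd1 were thus higher than in GC cells in both preMem and prePC, while Slpi was lower in preMem and higher in prePC. Sdc1, Cd28 and Alpl had at most 3 UMIs in preMem cells.

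Set directly against preMem cells, prePC were higher in 3 of the 10 genes and lower in 0, where 3.33% of all genes tested were higher and 2.74% lower. Slpi was higher by 3.26 ± 0.26 (adjusted p = 2.6e-06), at 942.5, 1009 and 1281.5 CPM against 103, 113 and 119 CPM, with no overlap. In prePC, the highest cell held 70.7%, 38.3% and 80.4% of the Slpi UMIs of mice 1, 2 and 3. Slpi was higher under every alternative run, by 1.93 to 3.30. Ly6c2 was higher by 2.35 ± 0.37 (adjusted p = 0.0022), but 4 prePC held 83.5% of its 85 UMIs there. Ly6c2 did not pass without the cells that held other-type RNA (1.68, adjusted p = 0.19) or without mouse 2 (adjusted p = 0.077), nor with only the prePC of the main preMem cluster (2.11, adjusted p = 0.0755). Ly6a was higher by 0.71 ± 0.16 (adjusted p = 0.017), and this call was lost without mouse 1 (adjusted p = 0.12), without mouse 3 (adjusted p = 0.16), without the other-type cells (0.42, adjusted p = 0.097), with at least 20 cells per sum (0.34, adjusted p = 0.36) and with no replicate block (adjusted p = 0.0609).

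By deposited cluster, 40 of 49 prePC shared the main preMem cluster. In those 40, Slpi was 466, 564 and 256 CPM, and 379 of the 559 Slpi UMIs of prePC came from the 9 cells of other clusters. Both prePC with Cd93 also lay outside that cluster. T and NK cell markers had 8 UMIs in prePC, at 0 to 50.3 CPM per mouse, and myeloid markers had 78, of which 8 and 76 lay in the main preMem cluster. Their part in these levels was not tested beyond leaving those cells out.

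Between LZ and DZ cells, Tmem176b was the only one of the 10 genes to pass, where 11.3% of all genes tested were higher and 8.17% lower in LZ. The filter on low counts included the PC sums, where Tmem176b was at 246 to 396 CPM and Prg2 at 211 to 555 CPM. Both comparisons are therefore given as descriptions. Sdc1, Cd28, Entpd1, Alpl and Ly6c2 had at most 5 UMIs in either state. Tmem176b was 4.59, 4.57 and 2.92 CPM in LZ against 2.20, 1.31 and 2.27 CPM in DZ, higher by 1.04 ± 0.34 (adjusted p = 0.043). The ranges did not overlap, but the call was lost without mouse 1 (adjusted p = 0.17), without mouse 2 (0.64, adjusted p = 0.35), with the other-type cells left out (adjusted p = 0.067), without the second barcode series (adjusted p = 0.098) and with no replicate block (adjusted p = 0.0986). Prg2 was 1.15, 0.993 and 1.17 CPM in LZ against 1.73, 3.03 and 1.80 CPM in DZ, and did not pass (-0.94 ± 0.34, adjusted p = 0.068).

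Among PC, those called in S or G2M phase by the deposited annotation had lower levels of 7 of the 10 genes than those in G1. The 46 cycling PC (16, 17 and 13 per mouse) were compared with 91 G1 PC (30, 41 and 20) in 1 model over mice. Of the 10 genes 7 were lower and 0 higher, where 13.7% of 3863 genes tested were lower and 15.8% higher. The median log2 difference was -1.63 over the 10 genes and 0.02 over all genes tested.

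Prg2 differed most, at 436, 994 and 837 CPM in G1 against 19.8, 70.5 and 48.9 CPM in cycling PC (-4.21 ± 0.15, adjusted p = 9.4e-05). Without the cells that held other-type RNA the Prg2 difference was -3.04 (adjusted p = 0.0071). Cd93 was 84.3, 68.4 and 109 CPM in G1 against 12.4, 20.1 and 13.0 CPM (-2.60 ± 0.33, adjusted p = 0.0022). Neither gene's G1 and cycling values overlapped.

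Ly6c2 was 1537, 1724 and 1686 CPM in G1 against 528, 511 and 124 CPM in cycling PC (-2.46 ± 0.43, adjusted p = 0.0066). Sdc1 was 209, 176 and 226 CPM against 94.2, 63.0 and 52.2 CPM (-1.68 ± 0.20, adjusted p = 0.0016). Slpi was 35955, 60283 and 22109 CPM against 15436, 14701 and 9941 CPM (-1.64 ± 0.24, adjusted p = 0.0037). In these genes too, every G1 level lay above every cycling level.

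Tmem176b was 578, 461 and 372 CPM in G1 against 241, 136 and 147 CPM (-1.62 ± 0.14, adjusted p = 0.00069). Entpd1 was 209, 173 and 226 CPM against 141, 121 and 111 CPM (-0.85 ± 0.14, adjusted p = 0.0061), the smallest of the 7 differences. Without mouse 3, Cd93 (adjusted p = 0.057), Entpd1 (0.061) and Slpi (0.055) no longer passed, and Entpd1 did not pass with DESeq2 (adjusted p = 0.059).

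Cd28, Alpl and Ly6a did not pass. Cd28 was 308, 84.4 and 180 CPM in G1 against 146, 131 and 88.1 CPM, with mouse 2 opposite in sign (-0.70 ± 0.32, adjusted p = 0.14). Alpl was 122, 54.7 and 83.7 CPM against 91.7, 60.4 and 48.9 CPM (-0.49 ± 0.22, adjusted p = 0.14). Ly6a was 4194, 5079.8 and 5053 CPM against 4657, 3607 and 1758 CPM (-0.79 ± 0.33, adjusted p = 0.12). Ly6a passed with DESeq2 (adjusted p = 0.022) and with immunoglobulin genes left out of the fit (adjusted p = 0.0065), and Cd28 passed without mouse 2 (-1.22, adjusted p = 0.010) and with no filter on low counts (adjusted p = 0.047). By share of cells Cd28 went the other way, with 68.8%, 82.4% and 76.9% of the deeper cycling PC and 60.0%, 26.8% and 60.0% of G1 PC. Within the second barcode series, cycling PC carried a mean of 7.34 of the 10 genes per cell and G1 PC 7.17. At 10000 UMIs per cell these means were 5.39 and 6.00.

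Other properties moved with phase. Cycling PC had a higher median depth (30934 against 21961 UMIs) and a lower immunoglobulin share of UMIs (20.1% against 48.0%). The first barcode series supplied 13 of 46 cycling and 7 of 91 G1 PC. With the first series left out, the same 7 genes passed, with Sdc1 at -1.41, Cd93 at -2.39, Ly6c2 at -2.31, Slpi at -1.43, Tmem176b at -1.56, Entpd1 at -0.66 and Prg2 at -3.91. With series as a term, 6 passed and Cd93 was not among the genes tested. The part of immunoglobulin content and depth was not tested.

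**Figure D4:**
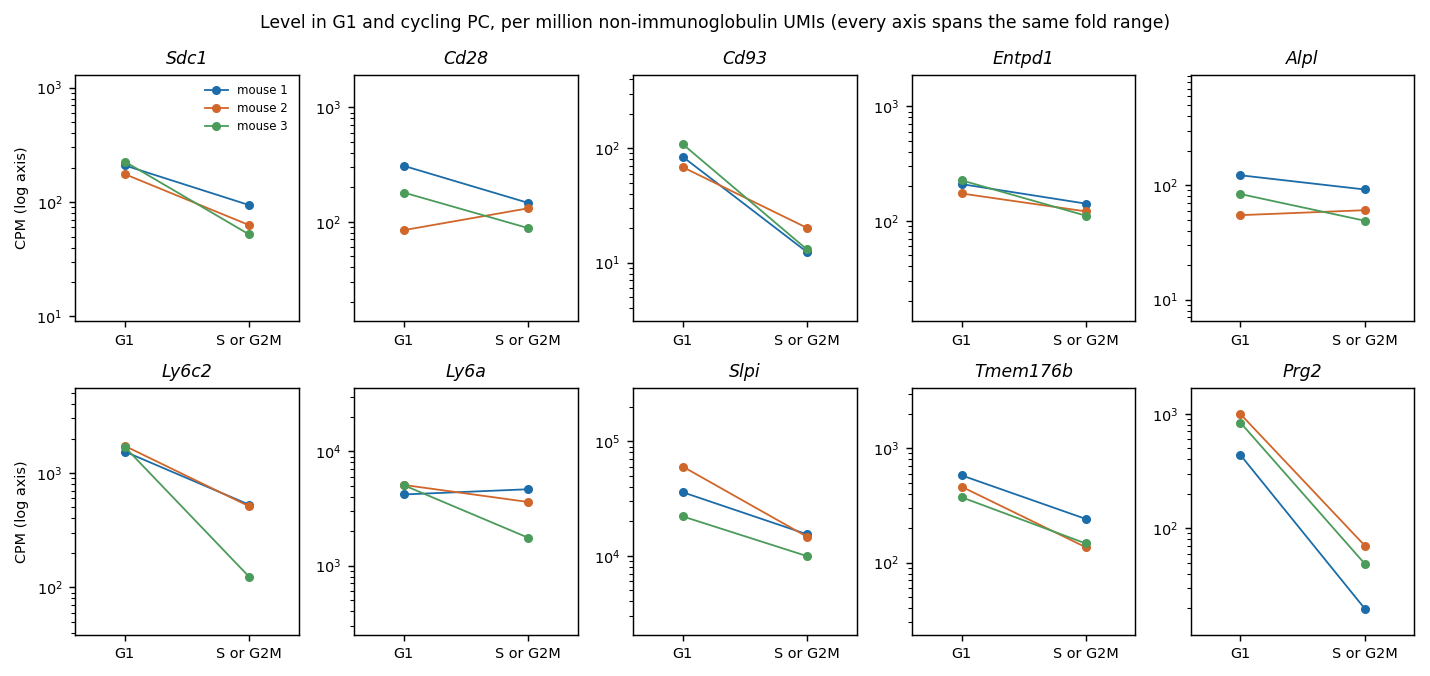
The level of each gene in CPM (log axis, every panel spanning the same fold range) is plotted for G1 and for S or G2M PC, with a line per mouse. All 3 lines fall for Sdc1, Cd93, Entpd1, Ly6c2, Slpi, Tmem176b and Prg2, while mouse 2 rises for Cd28 and Alpl and mouse 1 rises for Ly6a.

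Each PC was given the isotype of the heavy chain constant gene with most UMIs. IgM PC (23 cells: 6, 9 and 8 per mouse) were compared with 114 class-switched PC. None of the 10 genes passed, where 0.287% of 3136 genes tested did (9 genes). Slpi was 56.8, 44380.2 and 5033 CPM in IgM PC against 29789, 37733 and 17674 CPM in switched PC (-2.43 ± 1.83, adjusted p = 0.91), so the mice differed in sign. Sdc1 was 64.9, 89.2 and 96.4 CPM in IgM PC against 163, 127 and 136 CPM in switched PC, with no overlap, and did not pass (-0.73 ± 0.30, adjusted p = 0.69). Tmem176b had 0 UMIs in the 6 IgM PC of mouse 1 (-1.22 ± 0.85). With no filter on low counts, Slpi (adjusted p = 0.015) and Tmem176b (adjusted p = 0.0092) passed.

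The 20 PC of the first barcode series carried fewer of the 10 genes than the 117 of the second. This split was chosen after its values were seen, so it is described by values, with no p. Sdc1 was found in 1 of 20 against 91 of 117 cells (5.00% and 77.8%), Cd93 in 5.00% and 40.2%, Entpd1 in 30.0% and 82.9%, Alpl in 3 of 20 and 62.4%, Ly6c2 in 30.0% and 76.9%, Prg2 in 20.0% and 60.7%, Tmem176b in 8 of 20 and 68.4%, and Cd28 in 8 of 20 and 58.1%. Ly6a (100% and 98.3%) and Slpi (19 of 20 and 94.0%) were found in nearly every PC of both.

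By level, pooled over mice, the second series exceeded the first 48.4 times for Sdc1 (8.62 to 1920), 17.4 times for Cd93 (3.05 to 694), 5.78 times for Ly6c2, 5.41 for Alpl, 5.17 for Entpd1, 4.34 for Slpi, 2.86 for Tmem176b, 2.50 for Prg2, 2.22 for Ly6a and 1.82 for Cd28. The first-series PC were shallower (median 15979.5 against 24606 UMIs), with immunoglobulin at 11.4% against 39.4% of UMIs and a median plasma cell score of 0.536 against 0.770. Of the first-series PC 13 of 20 were cycling, against 33 of 117. Of the 6 plasma cell genes, 5 were lower in the first-series PC than in the second: Jchain at 9021 against 36967 CPM, Mzb1 at 4474 against 11593, Xbp1 at 828 against 3701, Fkbp11 at 70.3 against 665 and Irf4 at 51.1 against 189. Prdm1, which encodes BLIMP-1, was at 67.1 against 43.0 CPM, and Pax5, the B cell identity factor, was found in 3 of 20 and 1 of 117 cells. At 10000 UMIs per cell they carried a mean of 3.65 of the 10 genes, against 5.82. Among cycling PC, Sdc1 was found in 1 of 13 first-series and 26 of 33 second-series cells. With phase as a term in the fit, the log2 difference (first minus second) was -2.16 for Entpd1, -2.18 for Alpl, -1.97 for Slpi and -1.64 for Ly6c2, against -2.48, -2.38, -2.97 and -2.69 without it.

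**Figure D5:**
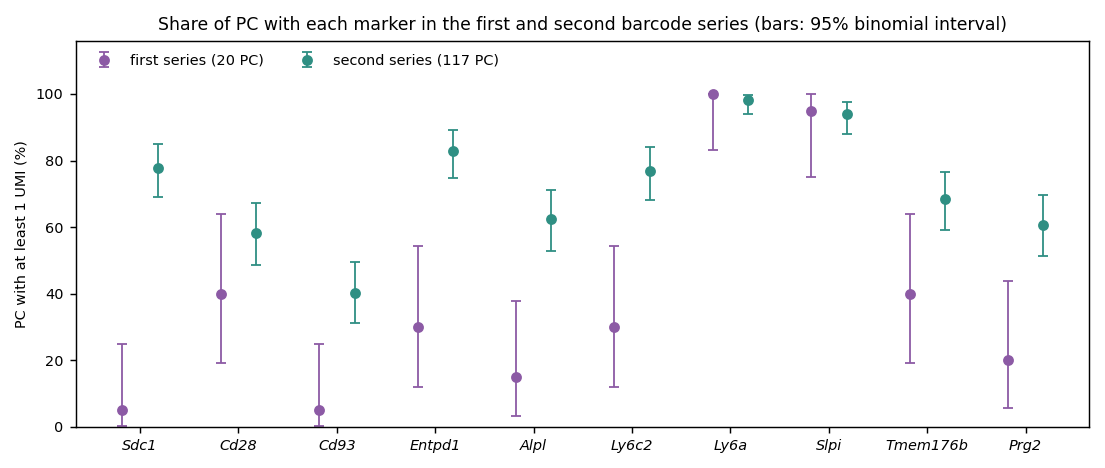
The percent of PC with at least 1 UMI of each gene is plotted for the first (20 PC) and second (117 PC) barcode series, with exact 95% binomial intervals that cover counting error only. Ly6a and Slpi are near 100% in both series, while Sdc1 is at 5.00% and 77.8%.

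Other plasma cell surface and secreted genes were counted from a list of 36, of which 35 were in the matrix. In prePC, 17 of 29 tested were higher than in GC cells and 0 lower, where 10.5% and 7.48% of all genes were. Their median log2 difference was 2.21, against -0.07 over all genes. The list was written with earlier results of these data known, and the filter for comparisons of states included the PC sums. Its counts and median outside PC are therefore descriptions and are not read against those of all genes. Lgals3, a galectin, was higher by 7.97, Itgb7, an integrin chain, by 6.19 and Cxcr3, a chemokine receptor, by 4.28. Against the same GC cells, preMem cells had 14 of the 29 higher and 3 lower, where 25.4% and 21.5% of all genes were. There Lgals3, Itgb7 and Cxcr3 were higher by 7.82, 6.05 and 3.63. Between prePC and preMem cells these 3 genes did not pass (adjusted p = 0.90, 0.82 and 0.33). Tnfrsf17 (BCMA), the survival receptor for APRIL, had 12 UMIs in 5 of 49 prePC and 0 in 5418 GC cells. Against preMem cells 5 of 29 were higher and 0 lower, where 3.33% and 2.74% of all genes were. They were led by Jchain, the joining chain of polymeric immunoglobulin (2.99), Ebi3 (2.52), Lgals1 (2.29) and Il6ra (1.63). In cycling PC 10 of 20 tested were lower than in G1 PC and 1 higher, where 13.7% and 15.8% of all genes were, with Jchain at -2.18, Slc3a2 at -2.11, Cd274 at -1.62, Itgal at -1.61 and Itgb1 at 1.10.

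Of 32 paralogs, ligands and partners of the 10 genes, 19 were in the matrix. The same limits apply to this list. In prePC 7 of 11 tested were higher than in GC cells and 0 lower, where 10.5% and 7.48% of all genes were. Among them were Ctla4 (4.37), a paralog of Cd28 with 5 UMIs in 4 prePC, Cd80 (3.83), a ligand of CD28, Ly6d (3.71) and Tmem176a (3.36), the partner of Tmem176b. In preMem cells 6 of 11 were higher than in GC cells and 0 lower, where 25.4% and 21.5% of all genes were. Ly6d was at 3.67 and Cd80 at 2.10 there. Wfdc17, of the same domain family as Slpi, had 7 UMIs in 1 prePC and 3 UMIs in GC cells. Cd80 was also higher in prePC than in preMem cells by 1.73 ± 0.48 (adjusted p = 0.045), the only gene of the list to pass there. In cycling PC, Tmem176a (-2.23) and Ly6e (-0.82) were lower of 6 tested and 0 were higher, where 13.7% and 15.8% of all genes were. Between PC and GC cells 8 of 11 were higher and 2 lower, where 25.9% and 27.2% of all 8473 genes tested were. The lower genes were Cd86, a ligand of CD28 (-3.54 ± 0.37), and Nt5e, the ecto-5′-nucleotidase that acts after CD39 (-3.24 ± 0.48).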

How the data were processed

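Single-cell 5′ expression was deposited as 1 matrix that pools the 3 mice and all wells, from 12 libraries in 6 label groups (PC and non-PC, each with mRNA, hashtag and B cell receptor libraries). The authors deposited raw UMI counts per gene and cell, with a table of each cell's mouse, state, cluster, cell cycle phase and plasma cell score. The score is the authors' deposited value, and its genes were not given in the sources used. Cell Ranger, Seurat, mm10 and GRCm38 are named per the submitters' processing notes, with no roles. How cells were filtered, and doublets handled, is not stated in those sources, and no doublet caller was run. All 6000 cells summed to their deposited totals, 51973226 UMIs in all (12669908, 18664942 and 20638376 in mice 1, 2 and 3).

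Counts were summed per mouse and state (at least 10 cells) or PC class (at least 5 cells) and tested with edgeR 4.0.16 in R 4.3.3 (quasi-likelihood test, TMM, filter on low counts) with mouse as a block, since sums of the same number come from the same animal. The threshold was a Benjamini-Hochberg adjusted p of 0.05 over all genes tested. Replicates are the 3 mice, never cells. DESeq2 1.42.0 was an alternative. CPM used non-immunoglobulin UMIs of each sum. Expected detection in a cell thinned to 2000 or 10000 UMIs, immunoglobulin included, was computed from the hypergeometric distribution, with shallower cells left out. Shares have exact (Clopper-Pearson) 95% binomial intervals and ratios of summed counts have exact 95% intervals, both for counting error only. A count of 0 was given a limit of 3: 3 of the cells for a share of cells with a UMI, and 3 UMIs over the group for a level. Cells with at least 2 UMIs of T, myeloid, erythroid, endothelial or eosinophil markers were counted as holding other-type RNA. The fits were also run on simulated data with known changes, and the outcome is not given here.

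The 10 genes, the other gene lists and the tests were chosen with earlier results of these data known. All 10 genes are named, and from the other lists at most 4 genes per direction with the largest change past the threshold, plus Tnfrsf17, Nt5e, Ly6c1, Ly6e, Tmem176a, Cd80 and Cd86 where they bear on a member.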

Additional observations from a re-analysis of the deposited data

How the results depend on the processing

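Alternatives were another normalization and tool, the filter on low counts, immunoglobulin genes left out, the minimum number of cells, cells with other-type RNA left out, each mouse or barcode series left out, and no replicate block. Some, such as the pre-memory cluster alone, the first barcode series left out of the tests within PC, and series as a term, were chosen after seeing the data. For single genes, 636 refitted log2 differences kept their direction and side of the threshold, 20 lost and 12 gained a call, and 0 changed sign with a call. Counts of genes called moved by over 1.5 times in these cases. LZ against DZ gave 1646 genes, 2549 with immunoglobulin genes left out, and 755 to 1147 without a mouse. The prePC against GC comparison gave 1521, 775 with at least 20 cells per sum, and 937 to 1115 without a mouse. For prePC against preMem the 514 became 835 with DESeq2 and 113 to 385 without a mouse. PC against GC gave 4497, and 571 with the second barcode series left out, which keeps 20 PC. Cycling against G1 PC gave 1141, 585 with DESeq2 and 269 to 722 without a mouse. IgM against switched PC gave 9, 26 with DESeq2, 161 with no filter, and 0 to 21 without a mouse. The 0 by edgeR arose without mouse 2 and without mouse 3, where 177 and 207 genes had an unadjusted p under 0.05. Fits with no replicate block gave 1303 genes for LZ against DZ, 4055 for preMem against GC, 1660 for prePC against GC, 628 for prePC against preMem, 4576 for PC against GC, 1148 for cycling PC and 9 for IgM PC. Except where a value above shows fewer cells or samples, the cause was not tested.

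The median share of PC over the 10 genes was 66.1%, and 50.7% at a minimum of 2 UMIs, 17.3% and 52.5% when thinned to 2000 and 10000 UMIs, 72.5% in the second and 30.3% in the first barcode series. The mean number of the genes per PC was 6.74, and 5.56 when thinned to 10000 UMIs, 5.37 at a minimum of 2 UMIs, 7.21 in the second and 3.87 in the first series. The median highest correlation with another gene was 0.983, and 0.926 without the PC sums. A minimum of 10 cells for IgM PC and leaving out the second series within PC were not run, since too few cells remain. Depth limits shares outside PC most in preMem cells.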

Other observations

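The genes whose level across mice and states was most like that of each member were ranked by Pearson r of log2(CPM + 1) over 18 sums (3 mice in 6 states), among 4520 genes at 20 CPM or more in PC. The points share mice and the PC sums lie far above the rest. For a gene that came first both ways, r over the 15 sums without PC is given beside it. No p is given. Ly6a was most like B2m, the light chain of class I MHC (r = 0.991, and 0.987 without PC). Ly6c2 was most like Ly6a (0.983 and 0.970). Entpd1 was most like Ckap4, a membrane protein of the endoplasmic reticulum (0.986 and 0.983). Slpi was most like Rpl36al (0.986 and 0.943), with Xbp1, the transcription factor of the secretory program, next over all sums (0.983). Without the PC sums Atp1b3 was next (0.936), and Xbp1 was not among the first 3. Sdc1 was most like Cd28 (0.983), and both were near 0 UMIs outside PC. Without the PC sums Myd88 came first for Sdc1 (0.802), and Cd28 was not among the first 3.

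Among isotypes, the 137 PC were 63 Ighg1, 26 Ighg2c, 20 Ighg2b, 5 Ighg3 and 23 Ighm by the constant gene with most UMIs.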
